A study of Homo sapiens with 24 samples.

Results

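The genes described here are those whose symbols mark them as part of the cell division cycle, read on the catalog (mRNA) probes of a custom array. They comprise cyclins, cyclin-dependent kinases (CDKs) and their partners, CDC proteins, the anaphase-promoting complex and replication factors (MCM, ORC, GINS). Centromere proteins, polo and BUB genes, E2F factors and all numbered kinesins (KIF) also belong. The only symbols starting with AURK are AURKAIP1 and the pseudogene AURKAPS1, so no Aurora kinase is among them. Members were found by the start of the symbol, leaving out CDC42 and the CDK5RAP genes. This gave 96 genes on 122 probes, of 15041 gene names on the 17448 catalog probes kept, and 22 of the genes had more than 1 probe. The cells were MRC5, a line of human lung fibroblasts, seeded at sub-confluent density. They were either left untreated (control) or given 0.2 mM hydrogen peroxide for 2 hours, called OS here for oxidative stress. Before harvest all cells received cycloheximide, which holds ribosomes on their mRNAs. Each treatment has 3 arrays of whole-cell (total) RNA and 3 of each pool of sucrose gradient fractions, which are untranslated (fractions 1 to 9, free RNA-protein particles and mRNAs with a single ribosome), low (fractions 10 to 14, mRNAs with few ribosomes) and high (fractions 15 to 23, mRNAs with many ribosomes). Together these are 8 groups of 3 and 24 arrays, all from 1 cell line, and their number limits the precision.

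Cyclins switch on CDKs in an order that carries a cell from G1 through DNA replication to mitosis. In G1 the origin recognition complex loads the MCM helicase on DNA, and GINS later joins it to make the active helicase. The kinetochore, built on centromeric chromatin marked by CENPA, ties chromosomes to the spindle, on which kinesin motors such as KIF11 and KIF23 work. The anaphase-promoting complex then tags cyclins and other proteins for destruction, and E2F factors control many of the genes for replication. Cultured fibroblasts stop dividing when DNA damage or oxidants raise CDK inhibitors such as CDKN1A. How many ribosomes an mRNA carries is read from its place in a sucrose gradient, since each ribosome adds to the weight.

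The name of the group fits most members but not all, because the symbols also take in genes with other work. Of the 96 genes, 24 fell in no role list, and these are mainly kinesins outside the mitotic list, such as the transport kinesins KIF1B, KIF13B and KIF3B. CDC37 is a co-chaperone that delivers kinases to HSP90, CDC5L and CDC40 belong to the spliceosome, and MCM3AP-AS1 and AURKAPS1 are an antisense RNA and a pseudogene. By role the genes are 6 cell cycle cyclins, 8 other cyclins and cyclin-binding proteins, 10 other CDKs and CDK partners and 4 CDC phosphatases. A further 7 belong to the anaphase-promoting complex, 12 to replication licensing and the helicase and 3 to the mitotic kinases and the spindle checkpoint. There are also 1 polo family gene of the stress-responsive type (PLK5), 5 mitotic kinesins, 12 centromere and kinetochore genes and 4 E2F factors. The CDKs that drive the cycle (CDK1, CDK2, CDK3, CDK4 and CDK6) were on 0 of the catalog probes. The engine itself is therefore seen only in part, through some of its cyclins, regulators and targets. The cell cycle cyclins here are CCNA1, CCND2, CCND3, CCNE1, CCNE2 and CCNF, while CCNA2, CCNB1, CCNB2 and CCND1 had no member probe.

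Values are log2 of the background-subtracted intensity after normalization, and they are compared between groups for 1 probe, not between probes. In control total RNA 96 of the 122 probes were well above background on all 3 arrays and 17 on 0 arrays. The untranslated pool of control cells was dimmer, with 78 probes on all 3 arrays and 34 on 0 arrays. Some genes of dividing cells had bright probes. The spindle motor KIF11 had values of 10.66, 10.87 and 10.90 on the control total arrays, the cytokinesis motor KIF23 had 10.67, 10.94 and 10.97, and the mitotic kinase PLK1 had 9.44, 9.82 and 10.12. Probes for the germline cyclin CCNA1, for CDC20B and for the neuronal kinesins KIF5A and KIF5C were on 0 control total arrays above background. The label of the cells was checked on markers: 5 of the 5 fibroblast marker genes with a catalog probe (COL1A1, COL3A1, COL6A3, LUM and THY1) were above background in control total RNA. So were 2 of 5 epithelial marker genes (CLDN4 and SFTPC), 1 of 2 leukocyte genes (PTPRC, by 1 of its 3 probes) and 1 of 3 endothelial genes (CDH5). KRT5 was above background on 0 of the 24 arrays.

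Some arrays stood apart from the others. On OS low replicate 3, 95.4% of the catalog probes and 118 member probes were above background, against 43.4% to 67.7% and 78 to 106 on the other 23 arrays. The SD of its log2 differences from the other OS low replicates was 1.98 and 1.99, and 0.46 between those. Counts of all called members are therefore given with and without this array, as are some single values. Lists by role and pathway are given with all arrays only. On control total replicate 1, 4 member probes lay far below the other control total arrays. The helicase gene GINS3 had values of 3.62, 10.74 and 10.72, the phosphatase gene CDC14B 3.37, 8.54 and 8.56, an ORC5 probe 3.45, 8.21 and 8.41, and a KIF16B probe 3.45, 7.37 and 7.38. In each of these the low value is replicate 1 and the remaining control arrays lie near the OS arrays.

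Tests took in a probe when all arrays of 1 or more of the groups compared read it well over background. It was called changed at an adjusted p under 0.05 from limma, adjusted over all tested probes of the array. Shares of called probes among all tested catalog probes are given beside the members' counts. Because arrays were normalized to the same distribution, a change is relative to the other catalog probes. In bulk samples, fewer cells of a type and less RNA per cell cannot be told apart, so a lower value of a mitotic gene may stand for either.

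Total RNA shows which members differed in amount after OS. PLK5, a polo family member that lacks a working kinase domain in humans, went from no signal to a clear one, and CDK5R1, the activating partner of CDK5, rose by 2.10 on the log2 scale. The splicing cyclin CCNL1, the G1/S cyclin CCNE1 and the repressor E2F6 rose by smaller amounts, and CENPF, a kinetochore protein of G2 and mitosis, fell. Of 101 tested member probes, 5 were higher (4.95%, against 3.07% of all tested catalog probes) and 2 lower (1.98%, against 3.06%). The median difference of the members was -0.11, and that of all tested catalog probes was -0.02. Both shares lie near the background, and a member that was not called may still have changed.

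Among the called members, the probes for PLK5 and CDK5R1 carry the largest differences in total RNA. Their first 30 of 60 bases, from the probe column of the array files with positions on GRCh37, show what was measured.
PLK5, chr19:1535394-1535453, plus strand: tgttcaacccagactttgctgggatctctt
CDK5R1, chr17:30818168-30818227, plus strand: ctgacaaagtcatgaagctcagtttggctg

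PLK5 had values of 3.95, 3.18 and 3.22 on the control total arrays, none of them above background, and 8.31, 8.13 and 8.32 on the OS arrays, all of them above it. The OS values lie far above every control value. A fold against a group at background is a lower bound, taken here as the mean of the bright group against the higher, on each array, of the lowest signal well above background and the probe's own signal. By this bound PLK5 rose at least 8.53-fold (limma, adjusted p = 6.45e-05). CDK5R1 had values of 8.15, 7.89 and 8.03 in control and 10.19, 10.14 and 10.03 upon OS. The groups are about 2 log2 units apart and do not overlap, and the difference was 2.10 ± 0.42 (SE, n = 3 arrays a group; limma, adjusted p = 0.00254). Both kept their calls in each of the 6 fits that leave out 1 array, with estimates for CDK5R1 from 2.04 to 2.16.

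The smaller increases were in 3 genes with different roles. CCNL1, a cyclin that works with CDK11 in splicing, had values of 10.29, 9.90 and 9.84 in control and 10.90, 10.57 and 10.52 upon OS. Its lowest OS value is above its highest control value, and the difference was 0.65 ± 0.16 (SE; adjusted p = 0.0121). Cyclin E1 (CCNE1), the partner of CDK2 at the start of S phase, had 11.66, 11.52 and 11.28 in control and 12.18, 11.87 and 12.07 upon OS, a difference of 0.56 ± 0.15 (adjusted p = 0.0245). E2F6, a repressing member of the E2F family, had 11.70, 11.51 and 11.61 in control and 12.15, 12.09 and 11.95 upon OS, a difference of 0.46 ± 0.12 (adjusted p = 0.0179). For each of these genes the 3 OS arrays lie above the 3 control arrays. Each lost its call when certain single arrays were left out: CCNL1 without control replicate 2 or 3 or OS replicate 1, CCNE1 without those or OS replicate 3, and E2F6 without control replicate 2 or 3 or OS replicate 1 or 2. The estimates over these fits ran from 0.53 to 0.79, from 0.46 to 0.64 and from 0.41 to 0.52.

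CENPF was the bright gene among those that fell. Its values were 13.28, 13.47 and 13.65 in control and 12.44, 12.60 and 12.98 upon OS. The groups do not overlap, and the difference was -0.79 ± 0.23 (SE; adjusted p = 0.0385). The call was kept only without OS replicate 3, and over the 6 fits that leave out 1 array the estimate ran from -0.95 to -0.68. The other probe that fell belongs to CCNDBP1, which encodes a protein that binds D-type cyclins. It had 5.95, 6.05 and 6.13 in control and 4.57, 5.07 and 4.88 upon OS, where 1 of 3 arrays was above background. The difference was -1.20 (adjusted p = 0.0406), a size that is not exact with an OS group mostly at background, and the call was lost without any 1 of the 6 arrays (from -1.32 to -1.06). A second probe of the gene gave 0.12 (adjusted p = 0.809), so the probes of this gene differ. Their sequences are given because they read different places on chromosome 15 of GRCh37, again as the first 30 of 60 bases, and which transcripts each reads was not tested.
CCNDBP1, fell, chr15:43485023-43485082, plus strand: atagctacagaacaaatgggcagaatttca
CCNDBP1, not called, chr15:43486980-43487039, plus strand: gccattgatcattgcatgaatagaatcaag

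**Figure D1:**
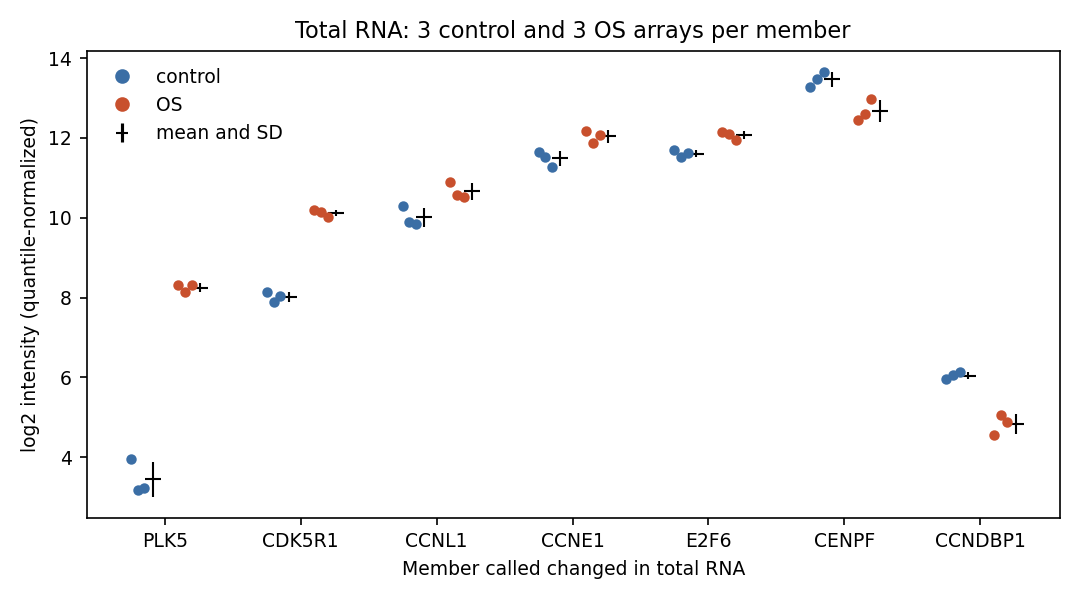
Log2 intensity (vertical axis) of the 7 member probes called in total RNA (horizontal axis), with 3 control arrays in blue and 3 OS arrays in red and the mean and SD of each group in black. PLK5 lies between 3.18 and 3.95 in control and between 8.13 and 8.32 upon OS, and in each of the 7 the groups do not overlap.

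The role lists are given next for total RNA. Replication licensing and helicase genes had 0 of 14 tested probes called (unadjusted p under 0.05 for 2 higher) and a median of 0.03. In this list GINS3 and an ORC5 probe lay far below the other control arrays on control total replicate 1. Without that array, all members higher at an unadjusted p under 0.05 in limma went from 7 to 5. The mitotic kinesins had 0 of 5 called (1 lower at an unadjusted p under 0.05) and a median of -0.42, and the anaphase-promoting complex 0 of 8 (3 lower at an unadjusted p under 0.05) and -0.20. Members that peak in G2 and mitosis (G2/M) had a median of -0.42, with CENPF as the 1 called of 11 tested. Those that peak at G1/S had 0.12, with CCNE1 as the 1 called of 14. On the 3 slides the G2/M median was -0.52, -0.43 and -0.30, below 0 on each. Single G2/M genes had negative values without passing the test: KIF11 gave -0.50 (adjusted p = 0.276), BUB1 -0.42 (0.633) and PLK1 -0.24 (0.883).

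Counts in total RNA moved with the settings. Without OS low replicate 3, which enters the estimate of the spread, 5 were higher and 10 lower (5.67% and 7.71% of all tested catalog probes), and the 7 called with all arrays were among them. Scaling to the 75th percentile gave 2 higher and 1 lower, and quantile normalization over all probes together gave 5 and 4. The 5 became 2 without control replicate 2 or 3 or OS replicate 1, and the 2 became 1 without OS replicate 3 and 0 without control replicate 1 or 3 or OS replicate 1 or 2. In those last fits limma gave 10, 8, 7 and 9 lower members at an unadjusted p under 0.05.

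The control gradient, high pool against untranslated pool in untreated cells, compares the members' shares of the pools before any stress. More members were higher in the high pool than lower. Of 100 tested probes 58 were higher in the high pool (50 genes; 58.0%, against 42.2% of all tested catalog probes) and 15 lower (15.0%, against 31.0%). The median was 0.99 for the members and 0.35 for all tested catalog probes, and each called probe had the same direction on all 3 slides. Some members, such as ORC1 and MCM10, passed the filter only through the high pool. With the strict filter, 40 of 78 tested probes were higher (51.3%, against 38.8% of all tested catalog probes). In that fit 15 were lower (19.2%, against 39.6%), and the medians were 0.54 for the members and 0.00 for all tested catalog probes. Replication genes and mitotic kinesins lay toward the high pool, and the centromere genes and atypical cyclins were split.

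Among replication genes, 12 of 15 tested probes were higher in the high pool and 1 lower, with a median of 1.79. ORC1, MCM10 and the tested MCM9 probes had 0 untranslated arrays above background. They passed the filter only through the high pool, so the median is not exact. The helicase subunit MCM2 had values of 9.43, 9.27 and 9.36 in the control untranslated pool and 12.12, 11.93 and 11.38 in the high pool. Every high pool value is more than 1 log2 unit above every untranslated one, and the difference was 2.46 ± 0.17 (SE; adjusted p = 4.59e-10). For its partner MCM5, read by 2 probes, the differences were 2.59 and 2.56 (adjusted p = 8.91e-11 and 1.3e-07). MCM4 gave 1.79 (adjusted p = 1.46e-09). ORC1, the origin complex subunit that comes and goes with the cycle, had 0 untranslated arrays above background and was at least 2.39-fold higher in the high pool (adjusted p = 0.000318). MCM10, which helps start replication forks, was at least 3.47-fold higher by the same bound (adjusted p = 0.000115). GINS1 is the exception, with values of 11.42, 11.32 and 10.96 untranslated and 10.64, 10.88 and 11.02 high. Its groups overlap, and its difference of -0.39 (adjusted p = 0.0481) became 0.22 with quantile normalization over all probes and 1.36 with 75th percentile scaling. That call was kept only without control replicate 3 of either pool, with estimates from -0.52 to -0.28, and was lost with slide as a block, with control untranslated replicates 1 and 2 averaged and without control total replicate 1.

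All 5 tested probes of the mitotic kinesins were higher in the high pool, with a median of 1.96. KIF11, which pushes the spindle poles apart, had 8.82, 8.86 and 9.10 untranslated and 10.80, 10.72 and 10.40 high, with no overlap (1.71 ± 0.23, adjusted p = 3.44e-06). For KIF4A, KIF14 and KIF23, chosen after their values were seen to complete the list, the differences were 2.08 (and 1.56 by a dimmer probe), 1.96 and 2.00. The transport kinesins KIF1B (2.15, adjusted p = 2.6e-11) and KIF13B (1.54, adjusted p = 3.29e-06) lay on the same side, and KIF3C (-0.36, adjusted p = 0.00865) on the other, though it gave 0.28 with quantile normalization over all probes and 1.39 with 75th percentile scaling. KIF16B, which moves early endosomes, was at least 8.19-fold higher by 1 probe and at least 2.14-fold by the other (adjusted p = 0.000247 and 0.00436), with 0 untranslated arrays above background. PLK1 gave 2.07 (adjusted p = 1.28e-05) by its bright probe and 1.06 (adjusted p = 0.207) by the dimmer one. CENPI, a kinetochore protein, shows why bounds are used. A probe of it lay at 3.20, 3.13 and 3.21 in the untranslated pool, none above background, and at 7.62, 7.60 and 7.83 in the high pool, at least 2.01-fold higher (adjusted p = 7.32e-10). The second probe had 6.42, 7.19 and 7.45 untranslated, 2 of them above background, and 7.75, 7.79 and 7.88 high (0.79 ± 0.23, adjusted p = 0.00544). The sequences of these CENPI probes on chromosome X of GRCh37 differ, and each is shown by its first 30 of 60 bases.
CENPI, dark in the untranslated pool, chrX:100387440-100395708, plus strand: ttcaagtgtagtgtgcttcagagtctgaaa
CENPI, dim in the untranslated pool, chrX:100417917-100417976, plus strand: tcccagagcagagggcataaactgcaacaa

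Cyclins differed by type. The D-type cyclin CCND2, which couples growth signals to G1 kinases, had 9.19, 9.03 and 8.92 untranslated and 12.02, 12.03 and 12.27 high. With nearly 3 log2 units between the groups, its difference was 3.06 ± 0.15 (SE; adjusted p = 2.91e-12), the most positive among the member probes that were above background on all arrays of both pools. The cell cycle cyclins as a list had 4 of 6 tested probes higher and 0 lower (0 also at an unadjusted p under 0.05), with a median of 1.21. Of these 6, CCNF and a CCNE2 probe passed the filter only through the high pool, so the median is not exact. Cyclin E2 (CCNE2) gave 0.94 (adjusted p = 0.0119) by 1 probe and 1.49 (adjusted p = 0.0537) by the other, which without OS low replicate 3 gave 1.53 (adjusted p = 2.82e-05). CCNE1 among them gave 0.35 (adjusted p = 0.0403) and kept its call only without control untranslated replicate 1 (from 0.24 to 0.46). The other cyclins and cyclin-binding proteins had 2 higher and 4 lower of 9, with a median of -0.95. CCNB1IP1, a ubiquitin ligase that acts on cyclin B and in meiosis, had 13.85, 13.90 and 13.97 untranslated and 9.55, 9.73 and 9.48 high. Its mRNA was 20-fold lower in the high pool (-4.32 ± 0.14, adjusted p = 2.21e-14). The splicing cyclin CCNL1 lay at 11.77, 11.58 and 11.59 untranslated and 9.47, 9.55 and 9.32 high (-2.20 ± 0.15, adjusted p = 3.77e-10), and CCNI gave -1.19 (adjusted p = 2.61e-08). CCNT1, the cyclin of the elongation kinase CDK9, lay on the other side with 1.46 (adjusted p = 0.0131), and lost its call without control untranslated replicate 2 (1.20).

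The centromere genes were divided as well, with 3 of 14 tested probes higher, 3 lower and a median of -0.05. CENPA, the histone H3 variant of centromeres, had 10.39, 10.22 and 10.89 untranslated and 7.90, 8.35 and 8.57 high, with every high value below every untranslated one (-2.23 ± 0.32, adjusted p = 6.83e-06). CENPN, which reads CENPA nucleosomes, gave -3.28 (adjusted p = 1.98e-12). On the other side, CENPF gave 1.59 (adjusted p = 5.9e-06). The anaphase-promoting complex had 5 higher and 2 lower of 8. Its ANAPC1 probes passed the filter only through the high pool. ANAPC5 was higher by 2.00 (adjusted p = 4.98e-11), and the small subunits ANAPC16 and ANAPC11 gave -2.65 and -1.34 (adjusted p = 8.86e-05 and 9.14e-08). CDK5R2, the second activator of CDK5, gave -3.04 (adjusted p = 0.00133). Of the E2F factors, 3 of 4 were higher, and E2F6 gave -0.84 (adjusted p = 2.17e-06), which became 0.85 with 75th percentile scaling. E2F3 and E2F5 had 0 untranslated arrays above background and passed the filter only through the high pool.

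**Figure D2:**
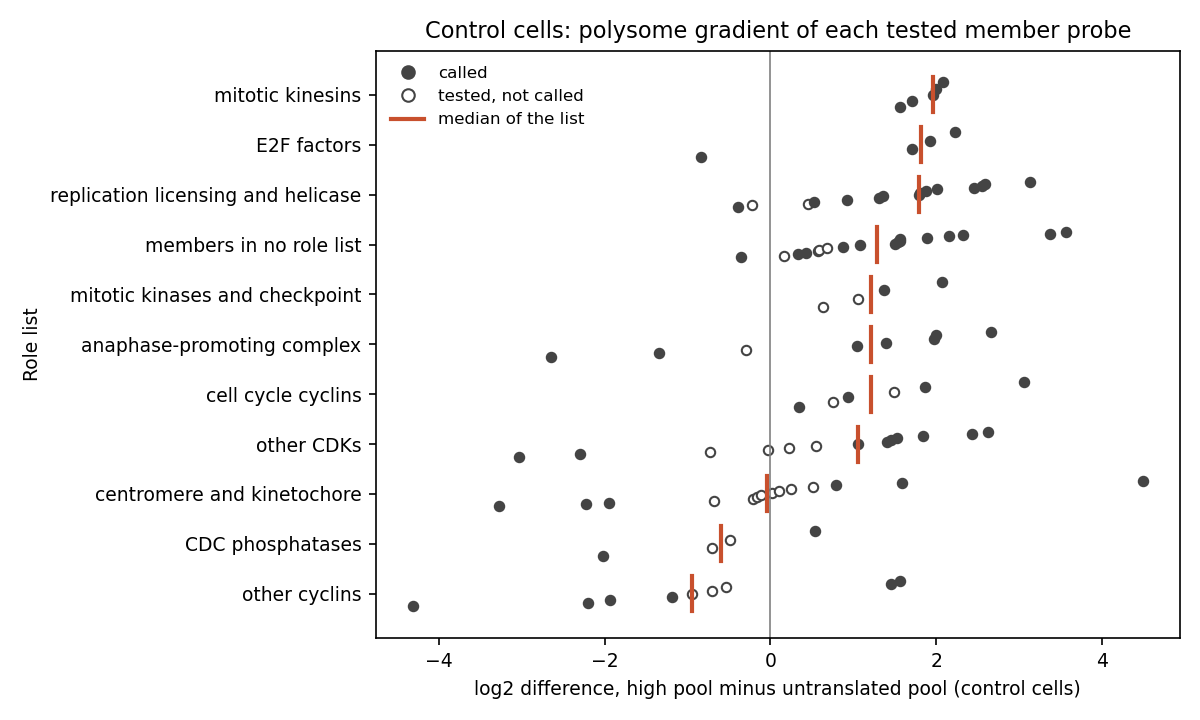
High minus untranslated pool of control cells in log2 (horizontal axis) for each tested member probe, by role list (vertical axis), with called probes filled, others open and the median of each list as a red bar. Mitotic kinesins (median 1.96) and replication genes (1.79) lie mostly right of 0, and other cyclins (-0.95) mostly left, a direction that holds as drawn for the main normalization; 75th percentile scaling moves every probe to the right.

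Scaling sets where 0 lies in this comparison. The median of all tested catalog probes was 0.35 as normalized here, 1.06 with quantile normalization over all probes and 1.64 with 75th percentile scaling. With the latter, 80 members were higher and 5 lower, and with the former 71 and 12, beside 58 and 15 here. Without OS low replicate 3 the counts were 64 and 21, beside 47.4% and 34.7% of all tested catalog probes. In the low pool 75th percentile scaling moved the median of all tested probes to -1.01 and quantile normalization over all probes to -0.36 (-0.18 here), and in total RNA the former moved it to -0.19 (-0.02 here).

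The untranslated pool, OS against control, asks which mRNAs gained or lost a share among free particles and single ribosomes, which this pool does not tell apart. Members moved both ways there. CCND2, the kinesins KIF13B and KIF1B, CENPF and the helicase subunits MCM2, MCM4 and MCM5 rose, and CENPA, CENPO, GINS1, CDC25A and KIF3B fell. Of 83 tested probes, 13 were higher (12 genes; 15.7%, against 15.8% of all tested catalog probes) and 11 lower (13.3%, against 15.7%). The median was -0.14, beside -0.04 for all tested catalog probes. These shares match the background, so the members are described here one by one and not as a group that moved.

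PLK5 and CDK5R1, which had the largest increases among the called members, are described first, together with CCND2. KIF13B, which rose more than CCND2, is described with the kinesins. PLK5 had values of 3.42, 3.22 and 3.22 in control, none above background, and 7.90, 7.79 and 7.92 upon OS (at least 2.29-fold higher; adjusted p = 6.24e-05). CDK5R1 had 7.94, 8.31 and 7.98 in control and 9.58, 10.08 and 9.57 upon OS (1.67 ± 0.42, adjusted p = 0.00686). Both show in this pool the increase seen in total RNA. CCND2 had 9.19, 9.03 and 8.92 in control and 10.34, 10.36 and 10.54 upon OS. The groups are more than 1 log2 unit apart, and the difference was 1.37 ± 0.15 (SE; adjusted p = 3.04e-06), while its difference in total RNA was -0.13. Its probe reads chromosome 12 of GRCh37, and its first 30 of 60 bases are shown with those of CENPF, MCM2 and MCM5, other cell cycle genes that rose in this pool, chosen after their values were seen.
CCND2, chr12:4414040-4414099, plus strand: atcgggccattggattttttccattatgtt
CENPF, chr1:214837308-214837367, plus strand: aaagtttggaagcactgatcacctgttagc
MCM2, chr3:127340805-127340864, plus strand: tttgggtgggatgccttgccagtgtgtctt
MCM5, first probe, chr22:35819307-35820178, plus strand: cagcatcatcaaggacttcaccaagcagaa
MCM5, second probe, chr22:35813789-35813848, plus strand: aggctgtggagggcgagattgacctggcca

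The replication list had 4 higher and 2 lower of 11 tested probes in this pool, with a median of -0.27. The 4 higher are probes of MCM2, MCM4 and MCM5. MCM2 had 9.43, 9.27 and 9.36 in control and 10.30, 10.37 and 10.25 upon OS, with no overlap (0.95 ± 0.17, adjusted p = 0.000498). MCM5 had 9.77, 10.03 and 10.28 in control and 11.01, 11.15 and 11.21 upon OS by its first probe (1.10 ± 0.16, adjusted p = 6.98e-05), and 0.78 (adjusted p = 0.0482) by the second. MCM4 gave 0.44 (adjusted p = 0.0222). All these values are for the untranslated pool, and in total RNA the replication probes had 0 of 14 called, as given above with the unadjusted count. The calls of MCM2 and of the first MCM5 probe held without any 1 array. The second MCM5 probe was kept only without control replicate 3 (from 0.46 to 1.03) and lost with slide as a block, and MCM4 was lost without control replicate 2 or OS replicate 2 or 3 (from 0.37 to 0.49). The 2 lower are GINS1 and ORC5: GINS1 had 11.42, 11.32 and 10.96 in control and 10.42, 10.49 and 10.29 upon OS (-0.83 ± 0.16, adjusted p = 0.00102), and ORC5 gave -0.39 (adjusted p = 0.0178). The ORC5 call was lost without control replicate 1 or OS replicate 1 or 2 (from -0.50 to -0.29). GINS3 and the second ORC5 probe each gave -0.68, uncalled, with SEs of 1.14 and 0.85 that take in their low values on control total replicate 1. Without that array GINS3 gave -0.68 ± 0.17 and passed the test (adjusted p = 0.00676), as did CDC14B with -0.48 (adjusted p = 0.00506), and the ORC5 probe gave -0.67 (adjusted p = 0.245).

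Kinesins were on both sides. KIF13B, a motor of vesicle transport, had 9.32, 9.05 and 9.02 in control and 10.47, 10.79 and 10.76 upon OS. No OS value comes near a control value (1.54 ± 0.21, adjusted p = 3.16e-05). KIF1B, which carries mitochondria and vesicles, had 10.26, 10.17 and 9.88 in control and 10.77, 11.05 and 10.98 upon OS (0.83 ± 0.12, adjusted p = 5.87e-05). KIF3B, a subunit of the motor that serves cilia, had 11.11, 11.23 and 11.16 in control and 10.78, 10.77 and 10.59 upon OS (-0.45 ± 0.10, adjusted p = 0.00237). Of the mitotic kinesins, 0 of 5 tested probes were called (0 also at an unadjusted p under 0.05), with KIF11 at 0.44 (adjusted p = 0.218).

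Of 12 tested probes of centromere genes, 4 were called lower and 1 higher, where 15.7% and 15.8% of all tested catalog probes were. CENPF is the 1 that rose, with 10.07, 9.68 and 10.23 in control and 10.94, 11.35 and 11.60 upon OS. Every OS value exceeds every control value, and the difference of 1.30 ± 0.22 (adjusted p = 0.000355) stands beside the -0.79 of total RNA. CENPA had 10.39, 10.22 and 10.89 in control and 8.78, 9.28 and 9.74 upon OS (-1.24 ± 0.32, adjusted p = 0.00878). Its call was lost without OS replicate 1 (-1.0). CENPO, part of the inner kinetochore, had 9.00, 9.34 and 9.31 in control and 8.52, 8.22 and 8.21 upon OS (-0.90 ± 0.20, adjusted p = 0.00335), and its other probe gave -0.83 (adjusted p = 0.0911). CENPM and CENPN each gave -0.45 (adjusted p = 0.0441). For CENPN, the one of these 2 fitted without each array, the call was lost whichever was left out (from -0.50 to -0.35).

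The phosphatase CDC25A, which frees CDKs for G1/S, had 10.01, 9.84 and 9.64 in control and 9.30, 9.33 and 9.19 upon OS. The groups do not overlap (-0.56 ± 0.19, adjusted p = 0.0465), but the call was kept only without control replicate 3 (from -0.65 to -0.47) and was lost with slide as a block. CCNE1 gave 0.46 (adjusted p = 0.0239) and was lost without control replicate 2 or 3 or OS replicate 1 or 3 (from 0.35 to 0.57). ANAPC11, the RING subunit of the anaphase-promoting complex, gave -0.41 (adjusted p = 0.0379), lost without any 1 array (from -0.44 to -0.35), and its complex partner ANAPC5 gave 0.49 (adjusted p = 0.00442). CDC37 gave 0.48, BUB3 of the spindle checkpoint -0.39 with overlapping groups, and CCNL2 -0.46. PLK5, CDK5R1, CCND2, KIF13B, KIF1B, KIF3B, CENPF, CENPO and GINS1 kept their calls without any 1 of the 6 arrays.

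Settings moved the counts of this pool. With quantile normalization over all probes 13 were higher and 5 lower, and with 75th percentile scaling 1 was higher and 0 lower, where limma gave 7 and 2 at an unadjusted p under 0.05. Without OS low replicate 3 the counts were 19 and 18 (22.9% and 21.7% of the members, against 22.3% and 25.5% of all tested catalog probes), so calls rose over the whole array, and the 24 called with all arrays were among them. The cyclin CCNG2 had 8.34, 8.53 and 8.10 in control and 7.93, 7.71 and 7.89 upon OS, a difference of -0.48 (adjusted p = 0.617) that passed the test in that fit (-0.49, adjusted p = 0.00508). The 11 lower members became 4 without control replicate 1 or OS replicate 1 or 2, 5 without OS replicate 3 and 7 without control replicate 2. With control replicates 1 and 2 averaged, since their labels share a number, they became 5 and the 13 higher 11. The calls of CDC25A, ANAPC11, ORC5, CENPN, MCM4 and the second MCM5 probe were lost in that fit. Without control total replicate 1, a fit chosen after seeing the data, 12 were higher and 10 lower, and CDC25A, CENPN, BUB3 and the second MCM5 probe were lost. Fibroblast markers moved in this pool too, with 4 of 6 tested probes higher, 0 lower (0 also at an unadjusted p under 0.05) and a median of 1.75. Among them COL1A1 gave 1.29 and COL3A1 2.20, while THY1 gave -0.18, and their part in the result was not tested. Of the same 6 probes, 3 were higher in the low pool (median 0.97) and 3 in the high pool (median 0.52). In both of those pools 0 were lower, also at an unadjusted p under 0.05. For the shift 1 was higher and 3 lower (median -0.73).

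**Figure D3:**
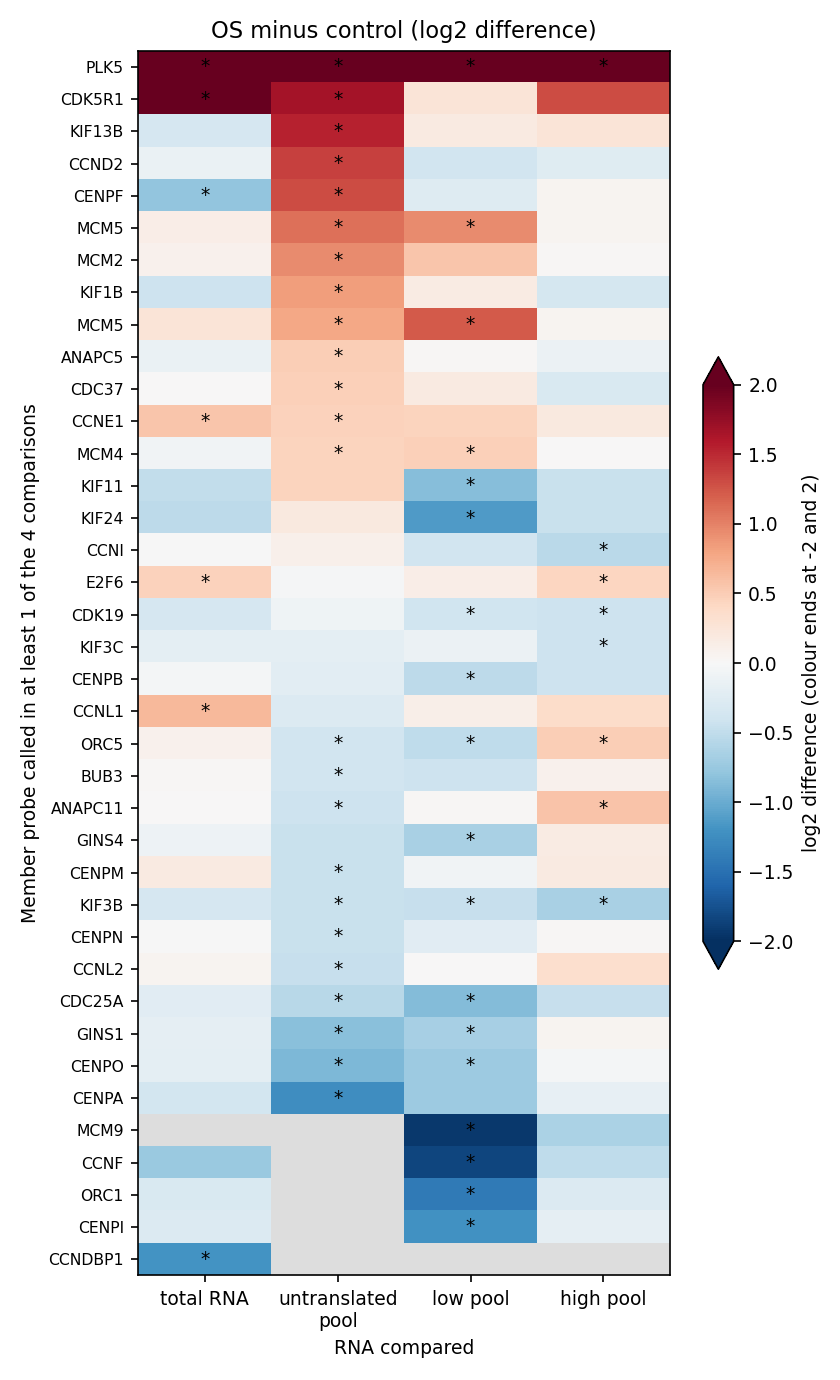
Log2 difference of OS minus control (color, ending at -2 and 2) for each member probe called in at least 1 of the 4 comparisons (rows of the map), in total RNA and the 3 pools (columns), with a star on each call and grey where a probe was not tested. PLK5 is red in all 4 columns, CDK5R1 has a star in total RNA and the untranslated pool, and CCND2 (1.37) and KIF13B (1.54) have a star in the untranslated pool alone.

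In the low pool, members were lower more often than higher, but the count rests on OS low replicate 3. Of 103 tested probes, 4 were higher (3 genes; 3.88%, against 4.42% of all tested catalog probes) and 14 lower (13.6%, against 5.45%). The median was -0.39, beside -0.18 for all tested catalog probes, and it was -0.10, -0.20 and -0.65 on the 3 slides, the last of which holds that array. Without that array 7 were higher and 4 lower (5.86% and 4.69% of all tested catalog probes), and CDC25A, KIF3B, ORC1 and ORC5 were the members of the 14 that stayed called. The 14 became 36 without OS replicate 1, 33 without OS replicate 2, 2 without control replicate 1 or 3 and 4 without control replicate 2. The 4 higher became 7 without OS replicate 2 or 3 and 2 without control replicate 3. With 75th percentile scaling 1 was higher and 37 lower (35.9%, against 19.6% of all tested catalog probes), and when OS replicate 3 was also left out 2 were higher and 10 lower (9.71%, against 6.72%).

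The members that stayed called show the low pool most plainly. CDC25A had 10.43, 10.06 and 10.03 in control and 9.76, 9.50 and 8.68 upon OS. Each OS value is below each control value, with replicate 3 the lowest (-0.86 ± 0.20, adjusted p = 0.0121; -0.55 and 0.0165 without OS replicate 3). Leaving out control replicate 1 ended this call, and over the 6 fits that leave out 1 array the estimate ran from -1.08 to -0.55. ORC1 had 7.38, 7.39 and 7.56 in control and 6.74, 6.64 and 4.68 upon OS (-1.42 ± 0.37, adjusted p = 0.024; -0.77 and 0.0305 without OS replicate 3). It was lost without any 1 control array (from -1.78 to -0.77). ORC5 gave -0.51 (adjusted p = 0.0173), lost without control replicate 1 or 2 (from -0.56 to -0.45), and KIF3B -0.46 (adjusted p = 0.0161), lost without control replicate 1 or 3 (from -0.53 to -0.40).

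In some other members called lower, such as CCNF, KIF11 and CENPI, OS replicate 3 lies far below the rest. The F-box cyclin CCNF had 7.06, 7.24 and 7.25 in control and 5.98, 6.27 and 3.77 upon OS. KIF11 had 9.29, 9.30 and 9.30 in control and 8.66, 8.78 and 7.88 upon OS, and the first CENPI probe 6.32, 6.04 and 6.68 in control and 5.72, 5.66 and 4.03 upon OS. In all 3 the groups do not overlap even without that replicate, yet the calls were lost without it, with estimates of -1.08, -0.59 and -0.68 in place of -1.84, -0.85 and -1.21. CENPO, GINS1, CDK19 and the recombination helicase MCM9 were lost without it as well. CENPO then gave -0.37 in place of -0.72, GINS1 -0.48 in place of -0.66, CDK19 -0.34 in place of -0.40 and MCM9 -1.69 in place of -1.93, so the CDK19 and MCM9 differences depended less on that array. The MCM9 probe was above background on 1 of 3 OS low arrays, so its size is not exact. CCNF, KIF11, CENPO, GINS1 and CDK19 were also lost without any 1 control array, CENPI without control replicate 1 or 3, and MCM9 without control replicate 3. With slide or replicate as a block CDK19 was lost too, and CENPO with replicate as a block. Without control total replicate 1 there were 3 higher and 11 lower, and CENPO, CDK19, CENPB and MCM4 lost their calls.

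Among the members that rose in the low pool, MCM5 stood out. Its first probe had 9.97, 10.10 and 9.85 in control and 10.97, 10.67 and 11.11 upon OS, with no overlap (0.95 ± 0.17, adjusted p = 0.00164). The second had 8.46, 8.54 and 8.32 in control and 9.35, 9.23 and 10.41 upon OS (1.22 ± 0.27, adjusted p = 0.00969), and lost its call without control replicate 3 (from 0.87 to 1.43). MCM4 gave 0.48 (adjusted p = 0.0477), which was kept only without OS replicate 3 (0.65). MCM2 gave 0.56 (adjusted p = 0.0655), and 0.69 (adjusted p = 0.0208) without OS replicate 3. These directions hold for quantile normalization, and with 75th percentile scaling MCM5 by its first probe gave -0.24 and MCM4 -0.52, but 0.58 and 0.38 when OS replicate 3 was also left out. PLK5 had 3.12, 3.24 and 3.25 in control and 7.69, 7.36 and 3.47 upon OS, where replicate 3 reads near the control values (at least 2.33-fold higher; adjusted p = 0.00871). This bound includes replicate 3, and the call held without it (adjusted p = 4.25e-11). The log2 difference then went from 2.97 to 4.39, sizes that are not exact with the control group at background. CDK5R1 had 8.78, 8.62 and 8.69 in control and 9.76, 9.81 and 7.28 upon OS. The OS value of replicate 3 is the lowest of the 6, and without that array the difference was 1.11 ± 0.15 (adjusted p = 7.29e-05).

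**Figure D4:**
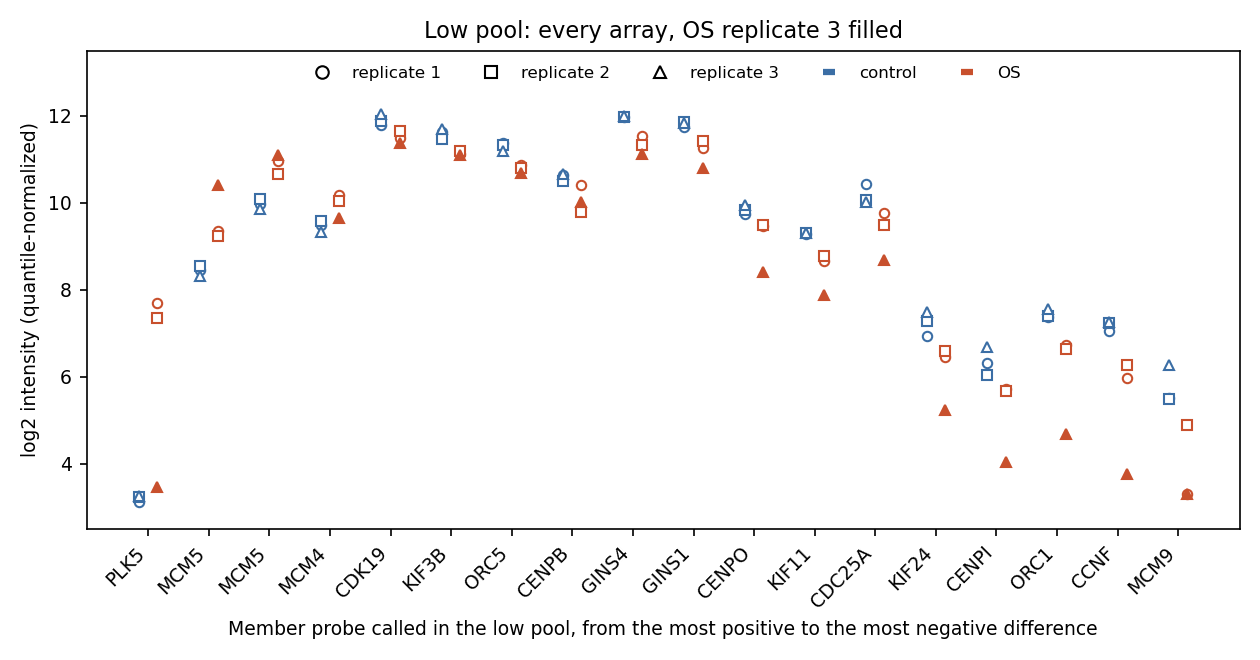
Log2 intensity (vertical axis) of each of the 18 member probes called in the low pool (horizontal axis), with control in blue, OS in red, replicates as circles, squares and triangles, and OS replicate 3 filled. For CCNF the filled triangle lies at 3.77 and the other OS values at 5.98 and 6.27.

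The high pool, OS against control, asks which mRNAs gained or lost a place on many ribosomes. Among the members ANAPC11, ORC5, E2F6 and PLK5 rose, and KIF3B, CCNI, KIF3C and CDK19 fell. Of 104 tested probes, 4 were higher (3.85%, against 3.57% of all tested catalog probes) and 4 lower (3.85%, against 2.83%). The median was -0.07 for the members and -0.01 for all tested catalog probes. Both shares lie near the background.

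PLK5 had 3.19, 3.19 and 3.16 in control, none above background, and 7.02, 6.90 and 6.93 upon OS (at least 3.17-fold higher; adjusted p = 0.00113), so its signal rose in the high pool as well. ANAPC11 had 15.57, 15.73 and 15.68 in control and 15.80, 16.51 and 16.40 upon OS. The lowest OS value is just above the highest control value (0.57 ± 0.14, adjusted p = 0.0169), and the call was lost without control replicate 1 or OS replicate 2 or 3 (from 0.44 to 0.80). ORC5 had 11.01, 11.13 and 11.16 in control and 11.58, 11.50 and 11.69 upon OS, without overlap (0.49 ± 0.12, adjusted p = 0.0152), and was lost without control replicate 1 or OS replicate 3 (from 0.44 to 0.54). E2F6 gave 0.43 (adjusted p = 0.0252), lost without control replicate 1 or 2 or OS replicate 2 or 3 (from 0.34 to 0.50). CDK5R1 had 8.29, 8.26 and 8.33 in control and 9.65, 9.61 and 9.55 upon OS. These groups lie more than 1 log2 unit apart, but the difference of 1.31 passed the test only without OS low replicate 3, whose low CDK5R1 value enters the estimate of the spread (adjusted p = 0.0787 with it; 1.34, adjusted p = 9.89e-07 without it).

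KIF3B had 11.75, 11.52 and 11.52 in control and 10.91, 10.88 and 11.05 upon OS. It fell in all 3 pools, and in this one the difference was -0.65 ± 0.11 (adjusted p = 0.000549), kept without any 1 array. In the fit without OS low replicate 3, KIF3B was also called lower in total RNA (-0.33, adjusted p = 0.0259). CCNI, a cyclin without a clear place in the cycle, had 14.05, 14.16 and 14.25 in control and 13.48, 13.89 and 13.45 upon OS (-0.54 ± 0.11, adjusted p = 0.00558), lost without OS replicate 3 (-0.47). KIF3C, a neuronal relative of KIF3B, and CDK19, a kinase of the Mediator complex, gave -0.42 and -0.41 (adjusted p = 0.0332 and 0.0356). KIF3C was kept only without OS replicate 2 (from -0.48 to -0.37), and CDK19 was lost without any 1 array (from -0.42 to -0.40). Without OS low replicate 3 there were 6 higher and 8 lower (7.03% and 6.29% of all tested catalog probes). With 75th percentile scaling 1 was higher and 0 lower (2 and 0 at an unadjusted p under 0.05 in limma), and 2 and 2 with quantile normalization over all probes. The 4 higher became 2 without OS replicate 2 and 1 without OS replicate 3 or control replicate 1. The 4 lower became 2 without any 1 control array or OS replicate 1, and 1 without OS replicate 3.

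The shift is the change of the gradient itself, the OS difference in the high pool minus that in the untranslated pool, so a positive value is a move toward the high pool upon OS. It tests whether the pools responded differently. CCND2, KIF13B, KIF1B, CENPF, MCM2 and MCM5 moved away from the high pool, and ORC5, GINS1 and ANAPC11 moved toward it. Of 104 tested probes, 5 were higher (4.81%, against 8.04% of all tested catalog probes) and 9 lower (8.65%, against 8.03%). The median was 0.01 for the members and 0.02 for all tested catalog probes.

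CCND2 had high pool values of 12.02, 12.03 and 12.27 in control and 12.00, 11.68 and 11.92 upon OS. These lie close together (-0.24, adjusted p = 0.6), while its untranslated values, given above, rose. The shift was -1.61 ± 0.22 (SE; adjusted p = 0.000139), most of it from the untranslated pool. KIF13B (-1.29 ± 0.30, adjusted p = 0.00933), KIF1B (-1.18 ± 0.18, adjusted p = 0.000431), CENPF (-1.24 ± 0.32, adjusted p = 0.0191), MCM5 (-1.04 ± 0.23, adjusted p = 0.00789) and MCM2 (-0.94 ± 0.25, adjusted p = 0.0216) have the same form, a rise in the untranslated pool and a high pool difference that did not pass the test with all arrays. Without OS low replicate 3, KIF1B also fell in the high pool (-0.35, adjusted p = 0.0351). The second probe of MCM5 gave -0.71 (adjusted p = 0.323). A second probe of KIF1B was above background on 1 of 3 control and 1 of 3 OS untranslated arrays and is too dim there for a comparison. CDC37, CCNI and ANAPC5 gave -0.78, -0.64 and -0.62. Of these, CENPF was lost without control untranslated replicate 2, OS untranslated replicate 3 or OS high replicate 2 (from -1.47 to -1.02), and CCNI without OS high replicate 3 (-0.57). MCM2 was lost without control high replicate 1 or 2, OS high replicate 2 or 3, or replicate 2 of either untranslated group (from -1.15 to -0.77).

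Toward the high pool went ANAPC11 (0.98 ± 0.20, adjusted p = 0.00427) and ORC5 (0.88 ± 0.17, adjusted p = 0.00282), which fell in the untranslated pool and rose in the high pool. GINS1 gave 0.88 ± 0.24 (adjusted p = 0.0233), lost without control untranslated replicate 1 or 2, OS untranslated replicate 3, control high replicate 1 or OS high replicate 2 (from 0.74 to 1.01) and with those control untranslated replicates averaged. Without control total replicate 1, GINS3 was called as well (0.99 ± 0.24, adjusted p = 0.0161). CCNL2 gave 0.80 (adjusted p = 0.025), and its other probes -0.01 and 0.36. ANAPC1, the scaffold of the anaphase-promoting complex, gave 1.41 (adjusted p = 0.0107) by 1 of 3 probes. That probe was above background on 1 of 3 control and 0 of 3 OS untranslated arrays. Its size is therefore not exact, and its call rests on untranslated values mostly not above background. The other probes were above background on 0 of 3 control and 0 of 3 OS untranslated arrays, so no values are given for them. Whether the 3 probes read the same transcripts was not tested.

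**Figure D5:**
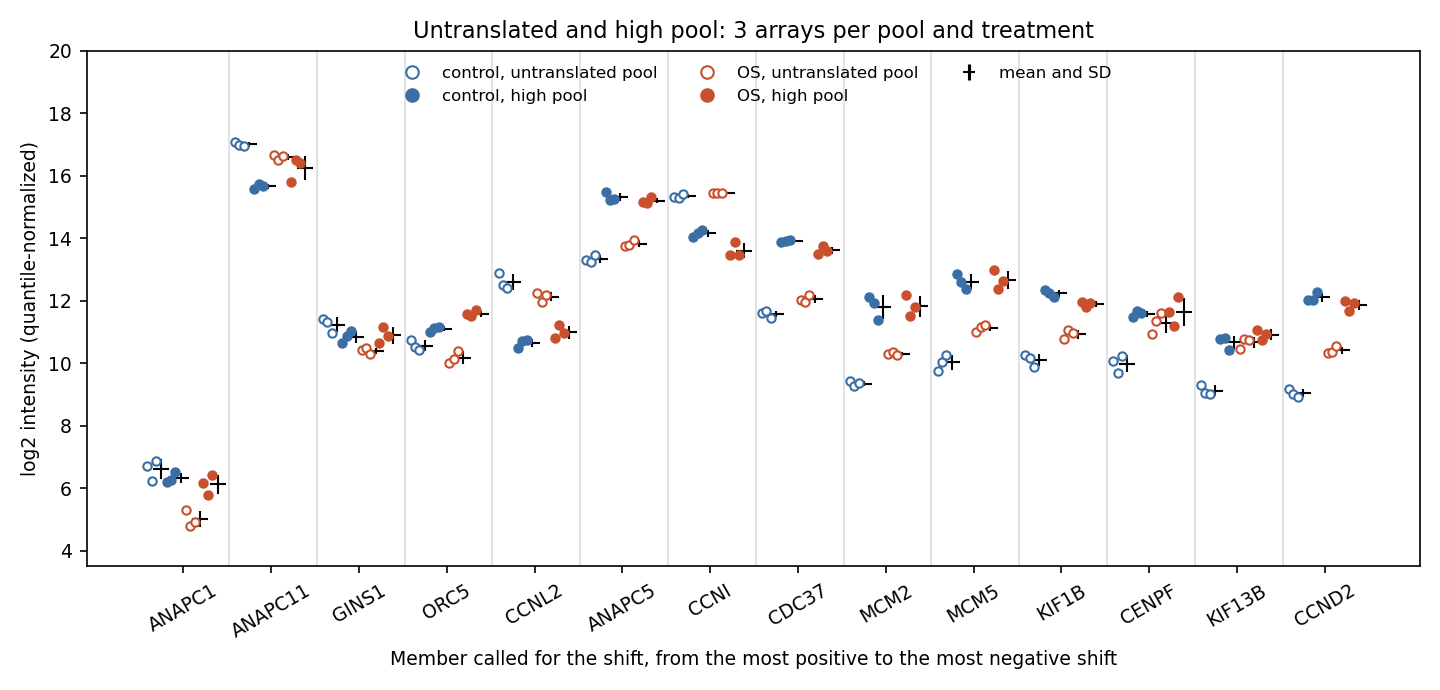
Log2 intensity (vertical axis) of the 14 member probes called for the shift (horizontal axis), with open points for the untranslated and filled points for the high pool, control in blue and OS in red, 3 arrays each, and the mean and SD in black. For CCND2 the open points rise from between 8.92 and 9.19 to between 10.34 and 10.54, while the filled points stay between 11.68 and 12.27.

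Shift counts were 15 higher and 17 lower without OS low replicate 3 (14.4% and 16.3% of the members, against 16.7% and 14.4% of all tested catalog probes), and the 14 called with all arrays were among them. PLK5, KIF11 and ORC1 were then called lower, KIF11 with -0.89 (adjusted p = 0.0264). PLK5 in both control pools and ORC1 in the control untranslated pool were above background on 0 of 3 arrays, so no size is given for them. CCNG2 was called with 0.77 (adjusted p = 0.00609), beside 0.75 (adjusted p = 0.664) with all arrays. With 75th percentile scaling 0 were higher and 0 lower (1 and 2 at an unadjusted p under 0.05 in limma). The 5 higher became 3 without control untranslated replicate 1, control high replicate 1 or OS high replicate 2. The shift uses the same arrays as the untranslated and high pool comparisons and adds no replicates to them.

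Promoters were read for the members because genes of 1 phase of the cycle share short motifs. RefSeq (GRCh38.p14) gave 300 bases, 250 before and 50 after the gene start, for 78 of the 96 genes. Motifs were searched on both strands: E2F as TTCGCGC or a form with GG, CC or GC in the place of its first CG, CHR (the cell cycle homology region bound with the DREAM complex) as TTTGAA or TTTAAA, and the CCAAT box as CCAAT. E2F letters were in 30.8% of member promoters and 13% of all 35116 promoters, CHR in 30.8% and 24.0%, and CCAAT in 53.8% and 34.6%. E2F and CHR letters differed in count between the phases, a difference that was not tested. Of 8 G1/S members matched, 6 had E2F, 1 had CHR and 4 had CCAAT, and of 10 G2/M members 2 had E2F, 9 had CHR and 10 had CCAAT. Members that rose in the untranslated pool upon OS had E2F in 3 of 7 and CHR in 2 of 7, and those that fell had E2F in 5 of 9 and CHR in 3 of 9. Both directions hold both motifs. A match is a description of letters and says nothing of a factor bound there.

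The windows of 30 bases around a match are shown for genes of both phases that changed in the pools, with the motif in capitals and the strand of the gene, 5′ to 3′, on GRCh38.p14. In GINS1 the capitals are the E2F letters read on the other strand.
MCM2, E2F, chr3:127598403-127598432, plus strand: gtgaaccacttTTCGCGCgaaacctggttg
CDC25A, E2F, chr3:48188442-48188471, minus strand: gtggattccgtTTGGCGCcaactaggaaag
GINS1, E2F, chr20:25407667-25407696, plus strand: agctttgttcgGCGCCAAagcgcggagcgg
CENPA, CHR, chr2:26785987-26786016, plus strand: ctggattcgggtTTTAAAaaacgccggccg
CENPF, CHR, chr1:214603068-214603097, plus strand: agagggcttgttTTTAAAatccatccgaaa
MCM2 rose and CDC25A and GINS1 fell in the untranslated pool, each with E2F letters, and CENPF rose and CENPA fell there, each with CHR letters.

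Other genes of the pathway give the setting of the members in total RNA. Of the CDK inhibitors, 2 of 6 tested probes were higher upon OS and 0 lower (0 also at an unadjusted p under 0.05). Of all tested catalog probes, 3.07% were higher and 3.06% lower. CDKN1A rose by 0.68 ± 0.17 (adjusted p = 0.0141) and CDKN1C by 1.15 ± 0.11 (adjusted p = 1.39e-06). Other mitosis genes had 1 of 15 called, the spindle pole gene ASPM with -1.09 ± 0.29 (adjusted p = 0.0235), which like CENPF gave a positive difference in the untranslated pool (1.48, adjusted p = 0.000928) and a negative shift (-1.86, adjusted p = 0.00683). Other replication genes had 0 of 19 called (1 higher and 2 lower at an unadjusted p under 0.05 in limma), and the checkpoint kinases and RB pathway 0 of 10 (0 also at an unadjusted p under 0.05). In the control gradient, other replication genes mostly lay toward the high pool like the MCM genes. Of 19 tested probes 14 were higher and 1 lower, with a median of 2.01 (42.2% and 31.0% of all tested catalog probes were higher and lower). Some of these, such as CLSPN, POLE2, PRIM2, RFC3 and a POLE probe, passed the filter only through the high pool, so the median is not exact. Other mitosis genes had 11 of 15 higher and 3 lower, and some, such as MKI67 and an SGOL1 probe, passed the filter only through the high pool. The CDK inhibitors lay on the other side, with 5 of 6 lower and a median of -1.57.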

How the data were processed

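The authors hybridised Cy3-labelled RNA to single-color arrays and deposited, per array, the spot intensity from Feature Extraction 10.7.3.1 with background subtracted, on a design annotated for GRCh37. Here log2 of this intensity was quantile-normalized separately over lncRNA and catalog probes. The deposited table of log2 values equals quantile normalization over all probes together (largest difference 0.0014) and served as an alternative. Outlier marks removed 178 probes, and 61359 stayed (43911 lncRNA, 17448 catalog), and 0 probe spots were saturated. In each comparison the tested probes were fitted with limma 3.58.1 in R 4.3.3 over the 8 groups, using variances moderated by empirical Bayes, and p values of tested probes of both categories were adjusted together (Benjamini-Hochberg). That the filter came before the fit was settled with the counts of both orders in view. The steps were tested on simulated data. The authors describe removing anomalous replicates but do not name them, and whether OS low replicate 3 was one is not known. All 24 arrays were kept here, and current symbols and promoters came from RefSeq (GRCh38.p14), matching 110 of the 122 probes by accession. Newer symbols are AURKAP1 for AURKAPS1 and KIZ for PLK1S1.

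The members and lists were chosen with earlier results of these data known. Named genes are 14 of a roster of 34 found on catalog probes and, per comparison, the 4 most positive and 4 most negative called members whose groups do not overlap. Other genes are named as members of a list or count and were chosen after their values were seen. Alternatives were other normalizations, filters and blocks, the mean of the probes of a gene, the mean of control untranslated replicates 1 and 2 (whose labels share a number) and leaving out arrays. The fit before the filter, 75th percentile scaling without OS low replicate 3 and the pools without control total replicate 1 were chosen after seeing the data. Experiments other than these arrays were not analysed here.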

Additional observations from a re-analysis of the deposited data

Results flagged for a closer look

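The 14 member probes called for the shift are listed because the OS difference in the high pool differed from that in the untranslated pool in limma's test of the difference itself. Negative values, a move away from the high pool, were measured for CCND2 (-1.61), KIF13B (-1.29), CENPF (-1.24), KIF1B (-1.18) and MCM5 (-1.04). MCM2 (-0.94), CDC37 (-0.78), CCNI (-0.64) and ANAPC5 (-0.62) complete that side. Positive values were measured for CCNL2 (0.80), GINS1 (0.88), ORC5 (0.88), ANAPC11 (0.98) and ANAPC1 (1.41). The ANAPC1 probe was above background on 1 of 3 control and 0 of 3 OS untranslated arrays. The size of its value is therefore not exact, and its call rests on untranslated values mostly not above background. No cause of any of these was tested. The groups of 3 arrays are too small for a test of single arrays.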

How the results depend on the processing

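Over the 92 named results and their alternatives, 1438 of 1765 values kept direction and call, 317 kept direction but lost the call and 10 reversed. Of 618 values with 1 array left out, 476 kept the call and 142 lost it. Counts below are higher and lower members, and unless a cause follows from the construction (fewer probes or arrays), the cause was not tested.

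With 75th percentile scaling the counts were 2 and 1 in total RNA (5 and 2 in the report), 1 and 0 in the untranslated pool (13 and 11), 1 and 37 in the low pool (4 and 14), 1 and 0 in the high pool (4 and 4), 5 lower in the gradient (15) and 0 and 0 for the shift (5 and 9). In limma 7 and 2, 2 and 0, and 1 and 2 had an unadjusted p under 0.05 in the untranslated pool, the high pool and the shift. With the same scaling without OS low replicate 3, chosen after seeing the data, they were 2 and 15 in total RNA, 15 and 5 in the untranslated pool, 2 and 3 in the high pool, 2 and 10 in the low pool, 84 and 8 in the gradient and 1 and 8 for the shift. In the untranslated pool and for the shift these lie closer to the counts in the report than with that array. Quantile normalization over all probes gave 4 lower in total RNA, 5 lower in the untranslated pool and 2 and 2 in the high pool, and normexp 6 lower in total RNA. Reversed were MCM5 (0.95 to -0.24) and MCM4 (0.48 to -0.52) in the low pool with 75th percentile scaling, but not when OS low replicate 3 was also left out (0.58 and 0.38). In the gradient GINS1 (-0.39) gave 0.22 with quantile normalization over all probes and 1.36 with 75th percentile scaling, with or without OS low replicate 3, KIF3C (-0.36) gave 0.28, 1.39 and 1.39, and E2F6 (-0.84) gave 0.85 with 75th percentile scaling in both forms.

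Without a filter the counts were 3 and 1 in total RNA, 6 lower in the untranslated pool, 1 and 2 in the high pool, 3 lower in the low pool and 3 and 5 for the shift, with more probes in the adjustment. The strict filter gave 0 lower in total RNA (9 at an unadjusted p under 0.05 in limma), 40 and 15 in the gradient and 9 higher for the shift. The mean of the probes of a gene gave 4 lower in total RNA and 2 higher for the shift. The fit before the filter, chosen after seeing the data, gave 5 lower in the untranslated pool and 2 lower in the high pool, and averaging control untranslated replicates 1 and 2 gave 5 lower in the untranslated pool and lost 8 of 62 named calls. The pools without control total replicate 1, also chosen after seeing the data, gave 12 and 10 untranslated, 4 and 4 high, 3 and 11 low, 58 and 14 in the gradient and 6 and 9 for the shift, and lost 7 of 85 named calls. Without OS low replicate 3 there were 10 lower in total RNA, 18 lower in the untranslated pool and 7 and 4 in the low pool. The same fit gave 8 lower in the high pool, 64 and 21 in the gradient and 15 and 17 for the shift.

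Leaving out 1 array gave 2 to 5 higher and 0 to 2 lower in total RNA, 10 to 13 and 4 to 9 in the untranslated pool, 2 to 7 and 2 to 36 in the low pool, 1 to 4 and 1 to 3 in the high pool, 53 to 59 and 13 to 14 in the gradient, and 3 to 7 and 6 to 11 for the shift. At 0 lower in total RNA limma gave 7 to 10 members with an unadjusted p under 0.05.

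The deviations of same-numbered control and OS arrays correlated by -0.335, -0.028 and -0.108 in the untranslated pool, and those on the same slide by 0.402, 0.129 and 0.417. In the other groups slide and replicate number are the same, with 0.464, -0.346 and 0.077 in the high pool. These describe the arrays. The replicate block gave 5 and 2 in total RNA, 13 and 10, 4 and 12, and 4 and 4 in the pools, 59 and 15 in the gradient and 7 and 9 for the shift, and 2 of the 92 named calls were lost. The slide block gave 5 and 2, 12 and 10, 4 and 13, 4 and 4, 59 and 14, and 7 and 9 in the same order, and 4 of the 92 were lost. The replicate block lost CENPO and CDK19 in the low pool. The slide block lost CDC25A and the second MCM5 probe in the untranslated pool, CDK19 in the low pool and GINS1 in the gradient.

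Limits apply to all of these values. Each group has 3 arrays of 1 cell line at 1 dose and 1 time, and their number limits the precision. Arrays were scaled to each other, so a value is a share of the RNA in its pool and not an amount, and a pool that holds more RNA upon OS would not be seen. Polysome pools show where an mRNA sits and not how much protein is made. Protein levels and cell cycle phase were not analysed here.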

Other observations

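Of the CDK inhibitors, 4 of 6 tested probes were higher for the shift (8.04% of all tested catalog probes were) and 0 lower (0 also at an unadjusted p under 0.05 in limma), with a median of 0.85, beside 0.02 for all tested catalog probes. CDKN1C, which blocks G1 kinases, gave 1.71 ± 0.16 (adjusted p = 4.87e-06) and rose by 1.65 in the high pool (adjusted p = 2.14e-08). CDKN2D gave 0.92 (adjusted p = 0.0149), CDKN1A 0.78 (adjusted p = 0.0428) and CDKN2A 0.56 (adjusted p = 0.0498), while CDKN2C gave 0.37 (adjusted p = 0.482) and CDKN3 0.96 (adjusted p = 0.214). How these shifts change without single arrays was not tested.

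Among other replication genes, 2 of 19 were called lower for the shift, near the 8.03% of all tested catalog probes, the DNA ligase LIG1 with -1.20 (adjusted p = 0.0127) and the fork protein TIMELESS with -0.68 (adjusted p = 0.0106), and 0 higher (1 at an unadjusted p under 0.05). In the untranslated pool LIG1 gave 1.13, POLA2 1.34, RRM1 0.68 and TIMELESS 0.56, each called, and the clamp loader gene RFC2 gave -0.47 (adjusted p = 0.00116). Of the other mitosis genes, the motility receptor HMMR was higher in the low pool by 1.07 (adjusted p = 0.000187), and the kinetochore gene SPC25 gave -0.90 in the untranslated pool (adjusted p = 0.00859) and a shift of 1.07 (adjusted p = 0.0497).

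Low control total values were found beyond the members. The sliding clamp gene PCNA, RFC5 and ATM were above background on 2 of 3 control total arrays, with group SDs of 4.90, 4.26 and 2.91, against 0.12, 0.08 and 0.08 upon OS.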
